A study of Mus musculus with 16 samples.

Results

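The Ink4 and Cip/Kip inhibitors of cyclin-dependent kinases (CDKs) are encoded by 7 genes, and all 7 were found by gene name among the 24421 names in the abundance tables of 16 dentate gyrus libraries. The Ink4 members are Cdkn2a, Cdkn2b, Cdkn2c and Cdkn2d, 4 genes, and the Cip/Kip members are Cdkn1a, Cdkn1b and Cdkn1c, 3 genes. The dentate gyrus, a region of the hippocampus where new neurons are formed, came from male C57BL/6 mice aged 12 months that were wild type (p16 WT) or homozygous for a null p16Ink4a allele (p16 KO) in every cell, and that either lived sedentary (CTL) or had a running wheel for 12 days (RUN). Each group, p16 WT CTL (replicates 1 to 4), p16 KO CTL (replicates 5 to 8), p16 WT RUN (replicates 9 to 12) and p16 KO RUN (replicates 13 to 16), held 4 libraries, and each library pooled 2 mice. The null allele, which leaves p19Arf functional, was made in FVB mice and then bred onto C57BL/6.

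Both families brake the cell cycle. Ink4 proteins bind CDK4 and CDK6 and keep them from cyclin D, whereas Cip/Kip proteins bind complexes of cyclins with CDK2 and other kinases, and either block them or, with cyclin D, help them assemble. Held kinases leave the retinoblastoma protein unphosphorylated, and E2F factors then stay bound. In the hippocampus these brakes are known for keeping neural stem cells out of division and for letting newborn neurons leave the cell cycle.

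The sequences in front of the start sites are shown for Cdkn2a, because the deleted product and p19Arf start at different sites of this 1 gene, and for Cdkn1a, the member with the largest difference between running and sedentary mice. They were taken from RefSeq, build GRCm38.p6, on the gene's strand, from 250 bases before the start site up to the start site or to the first base in an annotated exon. Capitals mark CATG and CATG with 6 free bases between them, a pair of half-site cores as p53 binds them, and GGGCGG, a GC box; both strands were searched.
Cdkn2a, upstream start (p19Arf), chr4:89294654-89294869, minus strand: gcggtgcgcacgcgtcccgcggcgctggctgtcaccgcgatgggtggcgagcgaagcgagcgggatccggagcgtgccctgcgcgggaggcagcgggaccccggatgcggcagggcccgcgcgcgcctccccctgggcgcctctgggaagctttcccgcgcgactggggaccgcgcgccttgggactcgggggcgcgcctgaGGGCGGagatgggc
Cdkn2a, downstream start (p16Ink4a), chr4:89282193-89282442, minus strand: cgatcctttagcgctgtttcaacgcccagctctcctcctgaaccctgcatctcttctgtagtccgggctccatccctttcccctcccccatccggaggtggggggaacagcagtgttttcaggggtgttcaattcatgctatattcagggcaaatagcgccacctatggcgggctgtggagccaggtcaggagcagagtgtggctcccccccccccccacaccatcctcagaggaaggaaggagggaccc
Cdkn1a, upstream start, chr17:29090729-29090975, plus strand: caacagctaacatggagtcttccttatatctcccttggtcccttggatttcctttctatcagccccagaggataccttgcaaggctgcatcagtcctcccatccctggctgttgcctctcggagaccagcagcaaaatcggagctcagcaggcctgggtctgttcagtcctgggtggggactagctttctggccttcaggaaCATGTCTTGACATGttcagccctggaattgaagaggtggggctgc
Cdkn1a, downstream start, chr17:29093519-29093768, plus strand: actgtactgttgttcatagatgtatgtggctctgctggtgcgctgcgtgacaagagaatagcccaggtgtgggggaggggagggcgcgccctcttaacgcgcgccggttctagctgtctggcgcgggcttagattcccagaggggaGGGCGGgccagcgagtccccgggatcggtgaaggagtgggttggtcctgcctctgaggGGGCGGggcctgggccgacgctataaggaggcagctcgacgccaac

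The p53-type pair lay 48 bases before the upstream Cdkn1a start and matched 161 of 32851 mouse promoter windows (0.49%). The downstream Cdkn1a window held 2 GC boxes, and the upstream Cdkn2a window and that of Cdkn1b held 1 each, against 32.7% of all windows with at least 1. The CRE letters TGACGTCA, found in 1.55% of windows, lay 46 bases before the start of Cdkn2b, and neither the E-box CACGTG nor the forkhead letters TGTTTAC lay in any of the 8 windows examined, which were 52 to 250 bases long and belong to the 6 members other than Cdkn1c. A match is a description of the letters, not of binding. The motifs were picked with the sequences in view.

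The members lie at chr4:89274473-89294619 (Cdkn2a), chr4:89306289-89311032 (Cdkn2b), chr4:109660876-109666756 (Cdkn2c), chr9:21288464-21291209 (Cdkn2d), chr17:29090986-29100722 (Cdkn1a), chr6:134920401-134925525 (Cdkn1b) and chr7:143458339-143461050 (Cdkn1c) of mm10, as the deposited tables give them. Cdkn1a and Cdkn1c each overlap an annotated gene on the opposite strand, over 1046 and 892 bases. Levels are given in TPM, a share of all transcripts that corrects for gene length and can be set side by side between genes. Differences are log2 fold changes on the scale of log2(scaled TPM + 0.1) with their standard error (SE) from limma over 17317 genes, where a gene was called at an unadjusted p under 0.05, the threshold of the study, and the p adjusted over all of these genes stands beside it.

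All libraries held the markers of dentate granule neurons (Prox1, Dsp, C1ql2, Calb1 and Tdo2), with a summed level of 391 to 1118 TPM. Markers of the neighbouring hippocampal regions CA1, CA2 and CA3 were present too, at 70.1 to 265, 468 to 839 and 910 to 1114 TPM. The sums therefore do not show how pure the dissections were. The tables hold no read counts, so counting error is unknown. Relative to the mean library, coverage ran from 0.621 to 1.95. In 3 sedentary libraries, p16 WT CTL replicate 2 and p16 KO CTL replicates 6 and 7, the summed level of 7 nuclear RNAs was 969, 537 and 474 TPM, whereas it was 1814 to 2514 TPM in the other 13 libraries, so the calls of the inhibitors and of the gene lists that rest on these libraries are given with and without them. Without these 3 libraries, p16 KO CTL keeps only replicates 5 and 8, and p16 WT CTL replicates 1, 3 and 4. Replicate 7 also held 213 TPM of choroid plexus markers, against 16.8 to 62.2 TPM elsewhere. In bulk tissue, fewer cells of a type and less RNA per cell cannot be told apart.

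Cdkn2d and Cdkn1b made up most of the inhibitor RNA. Cdkn2d, which encodes the Ink4 protein p19Ink4d, had a median of 78.1 TPM over the 16 libraries (68.9 to 91.3), and Cdkn1b, which encodes p27Kip1, a median of 46.2 TPM (43.2 to 54.0). Together they held 81.5% to 88.9% of the summed TPM of the family. Cdkn1a, the gene of p21Cip1, followed at 10.5 TPM (6.01 to 19.6), Cdkn2c, the gene of p18Ink4c, at 4.95 TPM (3.71 to 7.73), and Cdkn1c, the imprinted gene of p57Kip2, at 3.83 TPM (1.81 to 5.12). Cdkn2b, the gene of p15Ink4b, stood at 0.963 TPM (0.505 to 1.53) and Cdkn2a, the gene of p16Ink4a and p19Arf, at 0.0422 TPM (0 to 0.586). In this order, Cdkn2d exceeded Cdkn1b in 16 of 16 libraries. The ranges of Cdkn1a and Cdkn2c, of Cdkn2c and Cdkn1c, and of Cdkn2b and Cdkn2a overlapped. The deposited mean coverage per base did not keep the order of Cdkn1a, Cdkn2c and Cdkn1c in every library. It was 7.47, 9.51 and 12.7 in p16 WT CTL replicate 1, and 13.5, 6.27 and 4.21 in p16 KO RUN replicate 14. Cdkn1b and Cdkn2d were also the steadiest members, with coefficients of variation of TPM of 6.95% and 7.08% over all libraries, against 38.7% for Cdkn1a.

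**Figure D1:**
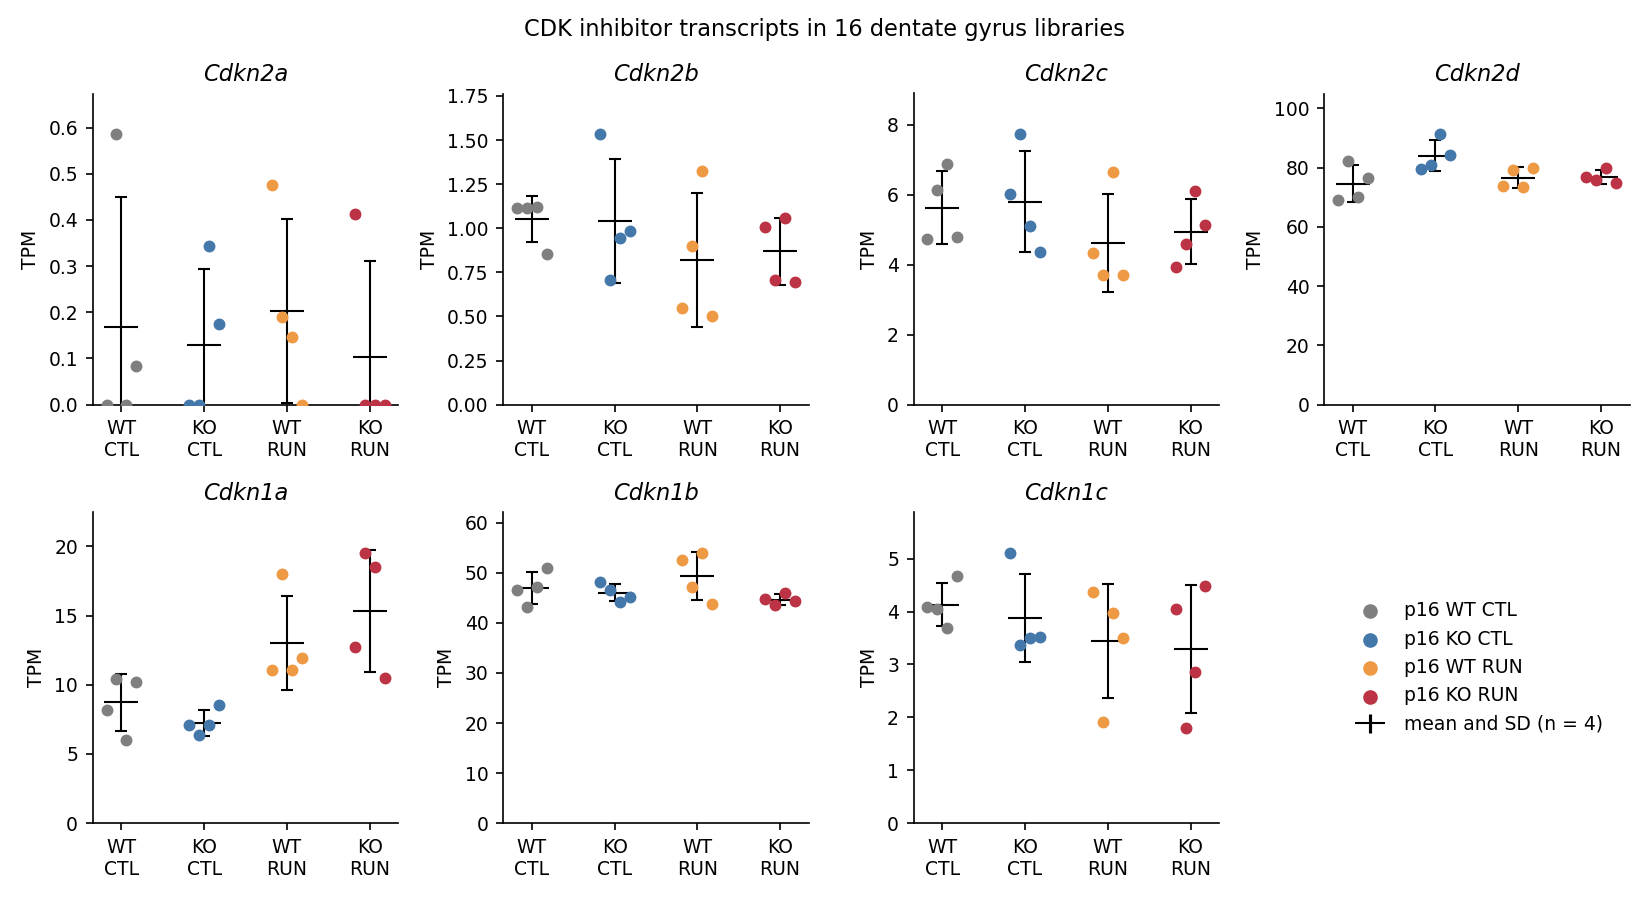
TPM of the 7 inhibitor genes in each library (points), with the mean and SD of the 4 libraries of a group (bars, cut at 0 for Cdkn2a); each panel has its own linear axis from 0. Cdkn1a is the gene whose running libraries (10.47 to 19.6 TPM) all lie above its sedentary ones (6.01 to 10.45 TPM).

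Cdkn2a, the targeted gene, was near the floor in every group and did not separate the genotypes. It was listed at 0, 0.586, 0 and 0.0843 TPM in p16 WT CTL replicates 1 to 4, at 0, 0, 0.344 and 0.175 TPM in p16 KO CTL replicates 5 to 8, at 0.475, 0.189, 0.147 and 0 TPM in p16 WT RUN replicates 9 to 12, and at 0.413 TPM in p16 KO RUN replicate 13 and 0 in replicates 14 to 16. Thus 8 of 16 libraries were at 0, in each of the 4 groups. The highest wild-type and the highest knockout level, 0.586 and 0.413 TPM, were of like size. The row spans both start sites shown above and holds p19Arf transcripts, which the deletion spares, so it does not check the genotype labels. Its mean coverage per base was 0 to 2.74, and no comparison called it (Set B, log2 fold change 0.01, SE 0.77, unadjusted p = 0.992).

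Cdkn1a rose with running. Its product p21Cip1 inhibits CDK2 complexes and binds the replication clamp PCNA. The levels were 8.20, 10.45, 6.01 and 10.2 TPM in p16 WT CTL and 7.06, 6.35, 7.06 and 8.54 TPM in p16 KO CTL. They were 11.0, 18.03, 11.1 and 11.9 TPM in p16 WT RUN and 12.7, 19.6, 18.5 and 10.47 TPM in p16 KO RUN. Every running library lay above every sedentary library in TPM, by a narrow margin at the edge, 10.47 TPM in p16 KO RUN replicate 16 against 10.45 TPM in p16 WT CTL replicate 2. After scaling of the libraries these values crossed, at 10.3 and 10.9, and 5 of 8 running libraries lay above all sedentary ones. Of all genes, 0.381% had running and sedentary libraries that did not overlap in TPM. The group means were 8.72 ± 2.07 and 7.25 ± 0.922 TPM in the sedentary p16 WT and p16 KO groups and 13.0 ± 3.37 and 15.3 ± 4.42 TPM in the running ones (SD, n = 4).

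Over both genotypes the rise of Cdkn1a was 1.70-fold, a log2 fold change of 0.76 (SE 0.16; limma, unadjusted p = 0.000293, adjusted p = 0.0481; exact permutation within genotypes, two-sided p = 0.00122). Cdkn1a was the 1 member of 7 called in this comparison, in which 17.9% of all genes were called (9.87% of all genes upwards) and 0.751% had an adjusted p under 0.05. It was called in 26 of 26 alternative analyses, with log2 fold changes of 0.67 to 0.85, whereas its adjusted p ran from 0.0296 to 0.206 and was under 0.05 in 9 of them. Without the 3 libraries low in nuclear RNA the difference was as large, 0.79 (SE 0.20; limma, unadjusted p = 0.00153, adjusted p = 0.206), and no gene of the table then had an adjusted p under 0.05 (1608 had an unadjusted p under 0.05).

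Within the genotypes, Cdkn1a rose 1.95-fold in p16 KO RUN vs p16 KO CTL mice, called Set A (log2 fold change 0.97, SE 0.21; limma, unadjusted p = 0.00119, adjusted p = 0.131; exact permutation p = 0.0286, the smallest that 4 against 4 libraries allow). In p16 WT RUN vs p16 WT CTL mice, Set C, it rose 1.48-fold (0.56, SE 0.23; limma, unadjusted p = 0.0344, adjusted p = 0.985; exact permutation p = 0.0857). The Set A call held on leaving out each of its 8 libraries in turn, whereas the Set C call was lost without p16 WT CTL replicate 1 (0.54) or 3 (0.38) or p16 WT RUN replicate 10 (0.39) or 12 (0.59), at unadjusted p of 0.0541 to 0.0948. The interaction, which compares the rise in the knockout with that in the wild type, was not called (difference of the log2 fold changes 0.40, SE 0.33; limma, unadjusted p = 0.236, adjusted p = 0.806). In p16 KO RUN vs p16 WT CTL mice, Set D, Cdkn1a was 1.73-fold higher (0.79, SE 0.25; limma, unadjusted p = 0.0124, adjusted p = 0.433). Without the libraries low in nuclear RNA the values were 0.91 in Set A, 0.68 in Set C and 0.91 in Set D (limma, unadjusted p of 0.0152, 0.019 and 0.00927, adjusted p of 0.501, 0.783 and 0.303). The interaction was 0.22 without them (unadjusted p = 0.579) and 0.22 to 0.58 over 26 alternative analyses, called in 0 of them. Set D shares its running libraries with Set A and its control libraries with Set C, so it is not independent of either. Genotype by itself gave no call for Cdkn1a, with log2 differences of -0.18 (limma, unadjusted p = 0.385) in sedentary mice, Set B, and 0.23 (unadjusted p = 0.37) in running mice, Set E. The Set E value ran from 0.083 without p16 KO RUN replicate 14 to 0.40 without p16 WT RUN replicate 10, with 0.12 without replicate 15, 0.15 without replicate 9 or 11 and 0.40 without replicate 16, and was called in 0 of 18 alternatives. The Set B value was 0.0027 without the libraries low in nuclear RNA. It became a call without p16 WT CTL replicate 3 (-0.35, unadjusted p = 0.0443).

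**Figure D2:**
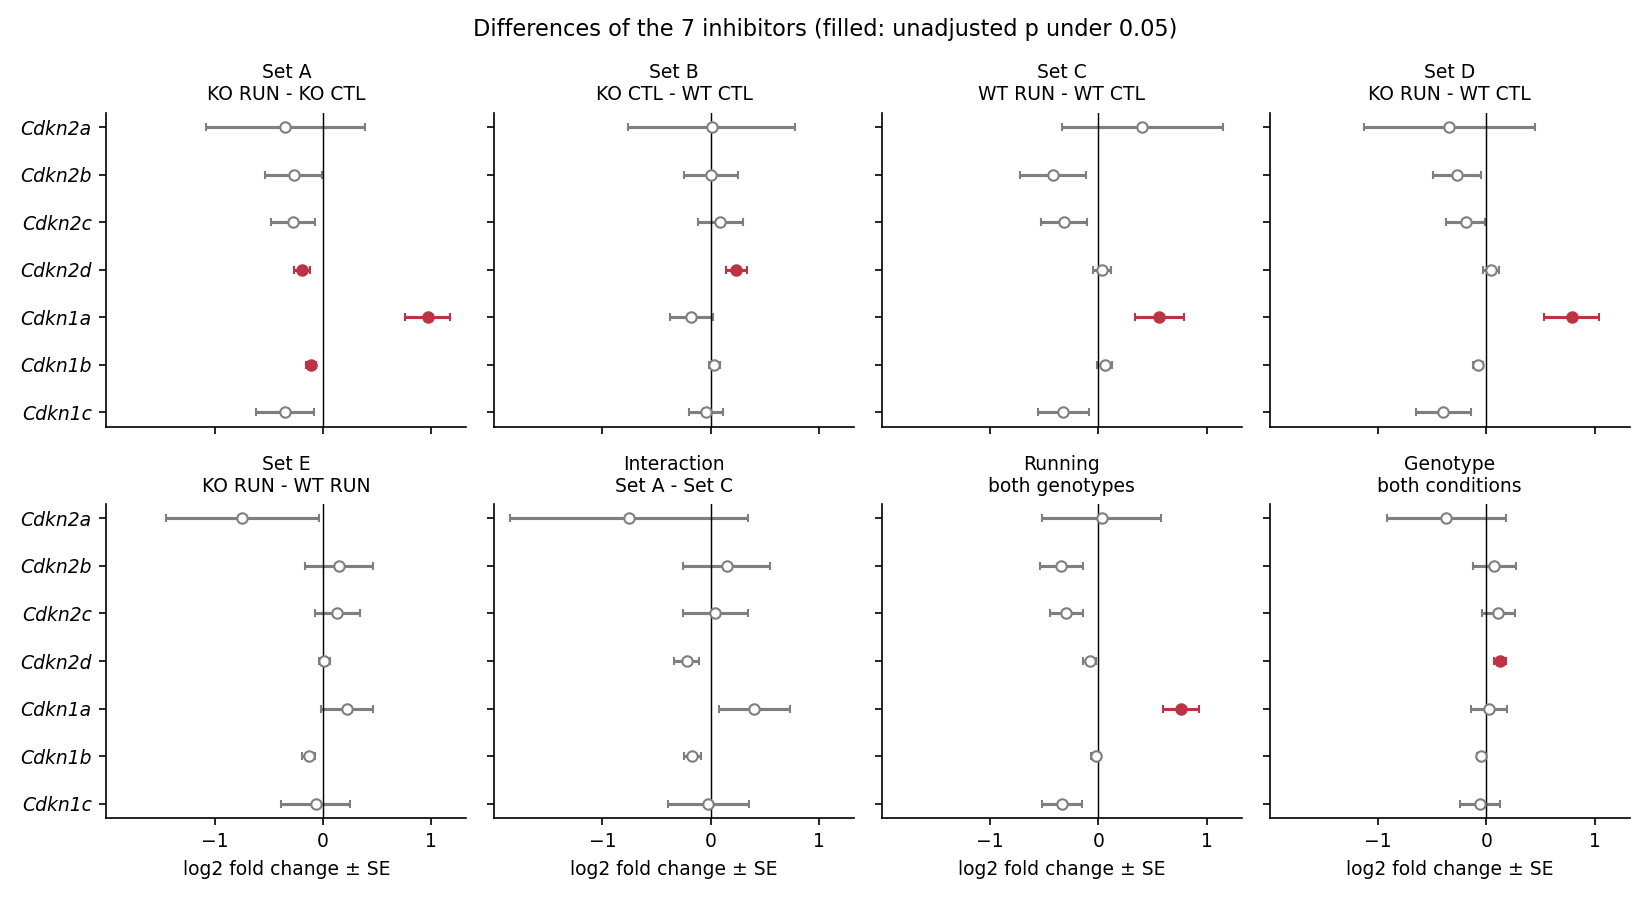
Log2 fold changes of the 7 genes with their SE in the 8 comparisons, on 1 shared linear axis; filled red points have an unadjusted p under 0.05. Cdkn1a is filled in Sets A, C and D and in running over both genotypes, where it lies at 0.76, while Cdkn2a has the widest error in each panel.

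Cdkn2d was higher in the sedentary knockout, by a small step. Its levels were 68.9, 82.4, 70.2 and 76.7 TPM in p16 WT CTL and 79.7, 80.9, 91.3 and 84.3 TPM in p16 KO CTL, so that 2 of 4 knockout libraries lay above all wild-type ones. In running mice the levels were 73.8, 79.3, 73.3 and 79.98 TPM in p16 WT RUN and 76.9, 75.8, 80.03 and 74.7 TPM in p16 KO RUN, and these ranges overlapped throughout. In Set B it was the 1 called member of 7 (1.18-fold, log2 fold change 0.24, SE 0.10; limma, unadjusted p = 0.0368, adjusted p = 0.625; exact permutation p = 0.0857), against 6.69% of all genes called. In genotype over both conditions it was again the 1 called member (0.12, SE 0.06; limma, unadjusted p = 0.0428, adjusted p = 0.674), against 7.12% of all genes. In Set A it was lower in the runners (-0.19, SE 0.07; limma, unadjusted p = 0.0255, adjusted p = 0.234). The interaction was not called, at -0.22 (SE 0.11; limma, unadjusted p = 0.0677, adjusted p = 0.797).

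These Cdkn2d calls turned on single libraries. The Set B call was lost without replicate 1, 3, 4, 6, 7 or 8 (log2 fold changes of 0.17 to 0.24), the Set A call without replicate 7, 13 or 16 (-0.19 to -0.13), and the call over both conditions without replicate 1, 3, 4, 6, 7, 8, 9, 11, 13, 14 or 15 (0.09 to 0.13). The interaction became a call without p16 KO CTL replicate 5 (-0.27) or p16 WT CTL replicate 2 (-0.29). Of the 4 highest Cdkn2d libraries, which are replicates 7, 8, 2 and 6, the libraries 2, 6 and 7 are the ones low in nuclear RNA. Without those, Set B gave 0.23 (limma, unadjusted p = 0.0245, adjusted p = 0.663), Set A -0.11 (unadjusted p = 0.119, adjusted p = 0.654) and the interaction -0.21 (unadjusted p = 0.0331, adjusted p = 0.66). Over both conditions the genotype difference was 0.12 without them (unadjusted p = 0.0188, adjusted p = 0.745). The genotype difference in sedentary mice was as large in that fit, and the running difference in the knockout was not called. That fit, however, keeps only replicates 5 and 8 of p16 KO CTL. In it, Set B called 3 of 4 CA1 pyramidal markers higher (median log2 fold change 1.42) and 2 of 5 dentate granule markers lower (-0.68). Whether the tissue make-up has a part in the Cdkn2d values was not tested. In Set D, Cdkn2d was not called with all libraries (0.04), and was called without p16 WT CTL replicate 2, the 1 low library in that comparison (0.12; limma, unadjusted p = 0.0487, adjusted p = 0.444).

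**Figure D3:**
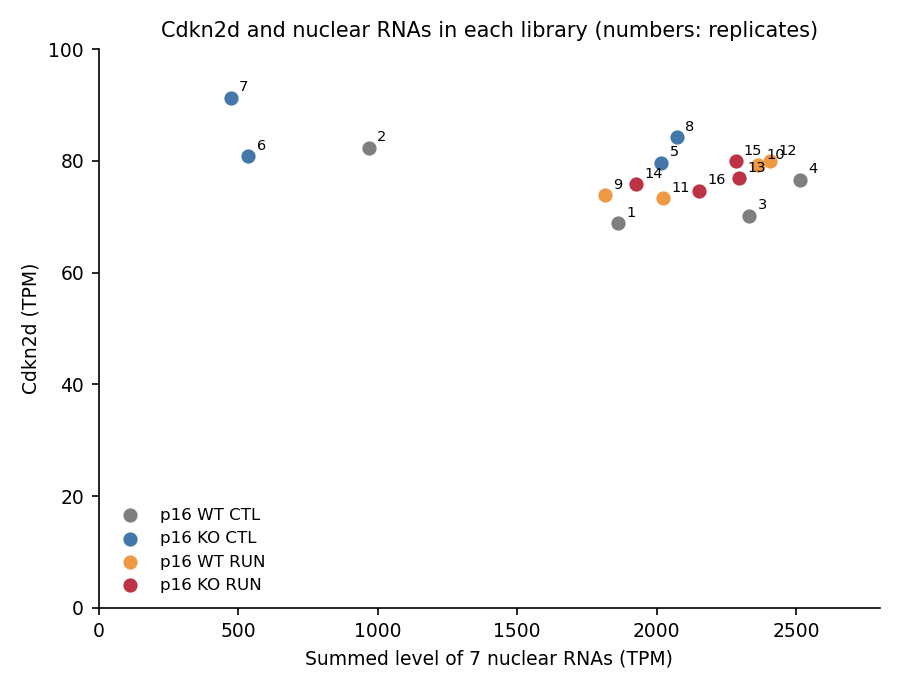
Cdkn2d (TPM, vertical) against the summed level of 7 nuclear RNAs (TPM, horizontal) in each library, numbered by replicate; both axes are linear from 0. Replicates 2, 6 and 7 stand apart at 969, 537 and 474 TPM of nuclear RNA, with 82.4, 80.9 and 91.3 TPM of Cdkn2d.

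Cdkn1b, whose product p27Kip1 holds many postmitotic neurons out of the cycle, stayed within 43.2 to 54.0 TPM. In p16 KO CTL it had 48.2, 46.6, 44.3 and 45.2 TPM and in p16 KO RUN 44.7, 43.5, 46.0 and 44.3 TPM, so the TPM ranges overlapped, although the scaled values did not, as for 10.4% of all genes in this comparison. Set A gave -0.11 (0.93-fold, SE 0.05; limma, unadjusted p = 0.0477, adjusted p = 0.268; exact permutation p = 0.0286). This call was lost without replicate 5, 6, 7, 13, 14 or 16 (-0.11 to -0.10) and on TPM as deposited (-0.04, unadjusted p = 0.413). Without the libraries low in nuclear RNA it was not called either (-0.08, unadjusted p = 0.168), nor without a variance trend, at a minimum mean of 1 TPM or in one fit over all 16 libraries (-0.11 in each, unadjusted p of 0.0698, 0.052 and 0.0708). With it, 3 of 7 members were called in Set A, Cdkn1a upwards and Cdkn2d and Cdkn1b downwards, against 18.5% of all genes called (10.7% higher and 7.74% lower). In the wild type, Cdkn1b had 46.5, 43.2, 47.1 and 51.0 TPM when sedentary and 52.6, 47.1, 54.0 and 43.8 TPM after running, which overlap widely. Its interaction was -0.17 (SE 0.08; limma, unadjusted p = 0.0534, adjusted p = 0.797), and became a call without p16 WT CTL replicate 4 (-0.20), p16 KO CTL replicate 8 (-0.18) or p16 WT RUN replicate 12 (-0.22). Set E gave -0.13 (unadjusted p = 0.0622, adjusted p = 1), and this became a call without p16 WT RUN replicate 12 (-0.18, unadjusted p = 0.00775, adjusted p = 0.801).

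The remaining members were not called in any of the 8 comparisons with all libraries. In running over both genotypes, Cdkn2c gave -0.30 (SE 0.15; limma, unadjusted p = 0.0672), Cdkn1c -0.34 (SE 0.19; unadjusted p = 0.0887) and Cdkn2b -0.34 (SE 0.20; unadjusted p = 0.105), with adjusted p of 0.314, 0.35 and 0.373. With quantile normalization each of these 3 had an unadjusted p under 0.05, at -0.36, -0.43 and -0.51. Leaving out p16 WT RUN replicate 11 alone gave calls for Cdkn2c (-0.39) and Cdkn2b (-0.46), leaving out p16 KO CTL replicate 8, p16 KO RUN replicate 15 or p16 WT CTL replicate 4 gave a call for Cdkn2c (-0.36, -0.35 and -0.34), and leaving out p16 KO RUN replicate 16 gave one for Cdkn1c (-0.42). In Set C, leaving out p16 WT RUN replicate 11 gave calls for Cdkn2b (-0.65) and Cdkn2c (-0.50). Without the 3 libraries low in nuclear RNA, Cdkn2c was at -0.17 (unadjusted p = 0.328), Cdkn1c at -0.38 (unadjusted p = 0.129) and Cdkn2b at -0.43 (unadjusted p = 0.0904). The members called were 1 of 7 in Set C, against 4.81% of all genes, 1 of 7 in Set D, against 8.63%, and 0 of 7 in Set E and in the interaction, against 3.87% and 5.48% (limma, unadjusted p under 0.05, and 0 of 7 by the adjusted p).

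Cdkn1c and Cdkn1a moved apart within the running groups. The 3 libraries highest in Cdkn1a, p16 WT RUN replicate 10 and p16 KO RUN replicates 14 and 15 at 18.03, 19.6 and 18.5 TPM, were the 3 lowest in Cdkn1c, at 1.92, 1.81 and 2.86 TPM. Every other library had 3.37 to 5.12 TPM of Cdkn1c. Over the deviations from the group means of all 16 libraries, Pearson's r was -0.65 and Spearman's rho -0.55 (permutation within groups, two-sided p = 0.0311 and 0.0733, adjusted over 21 pairs of members p = 0.327 and 0.77). Without replicates 10 and 14, the libraries farthest from the median deviation of Cdkn1a on the log2 scale, r was -0.39, so the relation rests on those libraries. Cdkn1a and Cdkn2d gave r = 0.60 and rho = 0.71 on the same scale (permutation p = 0.0126 and 0.00172, adjusted p = 0.265 and 0.0361), and r = 0.65 without replicates 2 and 7. With the group means left in, r between Cdkn1a and Cdkn2d was -0.03.

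**Figure D4:**
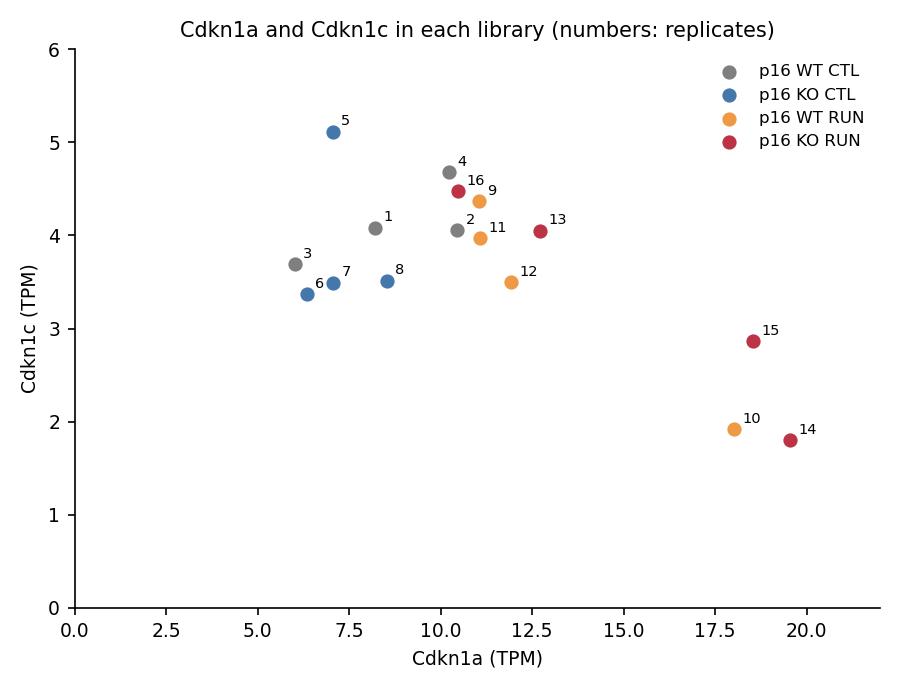
Cdkn1c (TPM, vertical) against Cdkn1a (TPM, horizontal) in each library, numbered by replicate; both axes are linear from 0. Replicates 10, 14 and 15, all from running mice, lie at 18.03 to 19.6 TPM of Cdkn1a and 1.81 to 2.86 TPM of Cdkn1c.

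The genes whose pattern over the 16 libraries was most like that of a member were found among 14438 genes whose mean reached 1 TPM. For Cdkn1a these were Ky (r = 0.91), Furin (r = 0.90), a proprotein convertase, and Sec61a1 (r = 0.88), a subunit of the translocon. For Cdkn1c they were Pter (r = 0.88), Ngb (r = 0.88), the gene of neuroglobin, and Myh7b (r = 0.87). For Cdkn2d they were Cadm4 (r = 0.95), Cox8a (r = 0.94) and Txnl1 (r = 0.94), for Cdkn2c Sept2 (r = 0.86), Bcl7b (r = 0.85) and Pdk4 (r = 0.84), and for Cdkn1b Zbtb12 (r = 0.81), Aff1 (r = 0.80) and Trove2 (r = 0.80). The points share library, depth and running, and these values are descriptions of the 16 libraries. No member was among the 3 nearest of another.

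Other genes in which replicates 10 and 14 stood apart were chosen after their values were seen, and replicate 15 did so in part of them. Ciart and Nr1d1, genes of the circadian clock, ranked 4 and 5 in likeness to Cdkn1c. Ciart had 6.29, 4.53 and 9.19 TPM in replicates 10, 14 and 15 and 8.90 to 17.1 TPM elsewhere, and Nr1d1 114.5, 113.8 and 140.1 TPM against 141.7 to 175.5 TPM. Pter was at 1.27 and 1.46 TPM in replicates 10 and 14, and at 5.59 TPM or more elsewhere, with 7.19 TPM in replicate 15. Ngb had 2.32 and 3.30 TPM in replicates 10 and 14 and 4.50 to 9.22 TPM elsewhere, with 5.61 TPM in replicate 15. Nr1d2, a further clock gene, had 29.9 and 23.3 TPM in replicates 10 and 14 and 39.4 to 57.9 TPM elsewhere, with 42.9 TPM in replicate 15. In Ciart, Pter, Ngb and Nr1d2, replicate 15 thus lay within the range of the other 13 libraries. Serpina3n, an acute phase gene, which ranked 6 in likeness to Cdkn1a, had 139.7, 114.4 and 107.0 TPM in replicates 10, 14 and 15 and 53.9 to 100.2 TPM in the other 13. Whether these genes have a part in the Cdkn1a and Cdkn1c values was not tested.

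The lists of pathway genes and markers are given next, with the called genes of each pathway list up to 4 per comparison. Pathway genes called without low libraries alone, and single marker genes, were chosen after their values were seen. With all libraries, 18.5% of all genes were called in Set A, 6.69% in Set B and 4.81% in Set C. The share was 8.63% in Set D, 3.87% in Set E, 5.48% in the interaction, 17.9% in running and 7.12% by genotype. Without the libraries low in nuclear RNA, the share of all genes called was 8.49% in Set A (4.9% higher), 6.68% in Set B (3.19% higher), 5.88% in Set C, 11.2% in Set D, 7.25% in the interaction, 9.29% in running (5.27% higher) and 6.48% by genotype. The p of single list genes come from limma, and no gene of the pathway lists had an adjusted p under 0.05.

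Among the 12 genes of the kinases and cyclins that the inhibitors hold, 10 reached the minimum mean of 0.1 TPM also without p16 KO RUN. Cdk1 and Ccnb1, at means of 0.106 and 0.115 TPM, passed it only through that group (0.266 and 0.211 TPM, against 0.0239 to 0.0686 and 0.0664 to 0.113 TPM in the other groups), so their calls are not used. In Set A, where 18.5% of all genes were called, Ccna2, the S phase cyclin, was called upwards (log2 fold change 0.97, unadjusted p = 0.0114) and Ccnd3 downwards (-0.13, unadjusted p = 0.0456). Without the low libraries neither was called (0.44, unadjusted p = 0.0731 and -0.14, unadjusted p = 0.087), whereas Cdk2 was (-0.55, unadjusted p = 0.0427). Set C called 0 of the 10 with all libraries and Ccna2 without the low one (-0.48, unadjusted p = 0.0483). Ccna2 was also called in Set E (0.61, unadjusted p = 0.00756) and in the interaction, with all libraries (1.13, unadjusted p = 0.0266) and without the low ones (0.92, unadjusted p = 0.00694). Over both genotypes, Ccnd2, the D cyclin of the hippocampal precursors, was the 1 gene called in running (-0.24, unadjusted p = 0.0215), where 17.9% of all genes were called. Ccnd1, a further D cyclin, was lower in Set D (-0.47, unadjusted p = 0.0372), and Cdk6 was lower in the knockout over both conditions (-0.56, unadjusted p = 0.0394). On leaving out the low libraries, Ccnd2, Ccnd1 and Cdk6 were not called (unadjusted p of 0.0762 to 0.0955), and Cdk6 was called in Set D (-0.79, unadjusted p = 0.017).

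Of the 12 tested genes of the Rb and E2F list, 5 were called higher with running over both genotypes and 0 lower. Of all genes, 9.87% were called higher. The median log2 fold change of the list was 0.09, against 0.01 over all genes. E2f3 rose by 0.23, Tfdp1 by 0.20, E2f4 by 0.10 and Rbl1 by 0.36 (unadjusted p of 0.00352, 0.00603, 0.0184 and 0.0297, adjusted p of 0.11 to 0.232). Without the low libraries 2 of 12 were called, E2f3 (0.23) and Tfdp1 (0.14). In Set A 4 rose, against 10.7% of all genes, Tfdp1 by 0.27, Rbl1 by 0.67, E2f3 by 0.22 and E2f4 by 0.12 (unadjusted p of 0.00135 to 0.0441), and Tfdp1 and E2f3 were called without the low libraries (0.27 and 0.21). In Set C E2f3 rose (0.24, unadjusted p = 0.0377), and in Set D, where 8.63% of all genes were called, E2f8 and E2f3 were higher (0.91 and 0.23) and E2f6 lower (-0.30, unadjusted p of 0.0141 to 0.0167), and these 4 calls held without the low library. In Set B Rbl1 was lower (-0.59, unadjusted p = 0.0456), without the low libraries at -0.61 (unadjusted p = 0.0507), where Tfdp1 was called (-0.19, unadjusted p = 0.0451). The interaction called 0 with all libraries and Tfdp1 without the low ones (0.26, unadjusted p = 0.00954).

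Of 15 p53 targets beside Cdkn1a, Eda2r passed the minimum mean only through p16 KO RUN (0.101 TPM over all libraries and 0.0929 TPM without that group), and the other 14 are counted. In running, 0 rose and Ccng1 fell by 0.12 (unadjusted p = 0.0238), against 17.9% of all genes called (9.87% higher). The median log2 fold change of the 14 was 0.04. In Set A 0 rose, and Ccng1 and Phlda3 fell by 0.24 and 0.33 (unadjusted p = 0.016 and 0.0433), against 18.5% of all genes called (10.7% higher). In Set D 2 rose, Plk2 by 0.23 and Gadd45a by 0.37 (unadjusted p = 0.0184 and 0.0418), against 8.63% of all genes called, and the interaction called Btg2 (0.46, unadjusted p = 0.0488) and Ccng1 (-0.24, unadjusted p = 0.0269), against 5.48%. In Set B Btg2 fell by 0.44 (unadjusted p = 0.0214), against 6.69% of all genes called. In Sets C and E 0 were called, against 4.81% and 3.87%, and also 0 by genotype over both conditions, against 7.12%. When the low libraries were left out, 0 were called in running and in Set A, and neither Gadd45a in Set D (0.39, unadjusted p = 0.0574) nor Ccng1 in the interaction (-0.17, unadjusted p = 0.0767) was called. Plk2 in Set D was called (0.26, unadjusted p = 0.0173), and Zmat3 in Set B (0.30, unadjusted p = 0.0367). Btg2 was then lower in Sets B, C and D (-0.65, -0.43 and -0.41) and by genotype (-0.32), with an interaction of 0.67 (unadjusted p of 0.00303 to 0.00877). None of the 13 targets with a promoter entry held the p53-type pair shown for Cdkn1a, which lay in 0.49% of all mouse promoter windows. The pair was picked with the Cdkn1a sequence in view, so this count sets no contrast between Cdkn1a and these targets.

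Among 18 regulators of the inhibitor genes, running over both genotypes called 3, a share near the 17.9% of all genes. They were Cbx7, a Polycomb repressor of the Cdkn2a locus (-0.20, unadjusted p = 0.011), Tgfbr1, a TGF-beta receptor (-0.23, unadjusted p = 0.014), and Mdm4, a p53 inhibitor (0.26, unadjusted p = 0.04995). Without the low libraries running called Cbx7 (-0.23, unadjusted p = 0.0217) and Foxo3, a forkhead factor (0.23, unadjusted p = 0.039). Tgfbr1 was lower in Set D (-0.41, unadjusted p = 0.000745), also without the low library (-0.41, unadjusted p = 0.00173), in Set A (-0.35, unadjusted p = 0.0154) and in Set E (-0.29, unadjusted p = 0.0452). Cbx8 was lower in Set D with and without that library (-0.29 and -0.30, unadjusted p = 0.017 and 0.027). Set A also called Zbtb17 (0.14, unadjusted p = 0.0339) and Mdm4 (0.42, unadjusted p = 0.0413), and Set B called Zbtb17 (-0.20, unadjusted p = 0.0171) and Foxo4 (0.24, unadjusted p = 0.0342), and without the low libraries 0 of the 18 were called in Sets A and B. Genotype over both conditions called Zbtb17 (-0.12, unadjusted p = 0.0189) and, without the low libraries, Zbtb17, Tgfbr1 and Mdm4 (-0.12, -0.26 and -0.11).

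Of 8 genes for the turnover and assembly of Cip/Kip proteins, Rbx1 and Skp1a, subunits of the ligase that degrades p27Kip1, were lower in running (-0.12 and -0.11, unadjusted p = 0.0164 and 0.0413). In Set A Skp2, the subunit that recognizes p27Kip1, was higher (0.48, unadjusted p = 0.035) and Skp1a lower (-0.18, unadjusted p = 0.0387), and in Set B Skp2 was lower (-0.54, unadjusted p = 0.0384). Of all genes, 17.9% were called in running, 18.5% in Set A and 6.69% in Set B. In the fit without the low libraries, 0 of the 8 were called in these comparisons. Near Cdkn2a and Cdkn2b, Klhl9 was the 1 of 4 neighbouring genes called by genotype over both conditions (-0.14, unadjusted p = 0.0109), where 7.12% of all genes were called, and it was called in Sets D and E (-0.20 and -0.17, unadjusted p = 0.00794 and 0.0282). It held without the low libraries by genotype and in Set D (-0.13 and -0.17, unadjusted p = 0.0284 and 0.0156). Elavl2 was lower in Set A (-0.48, unadjusted p = 0.0459), and not called without the low libraries (-0.46, unadjusted p = 0.113). Near Cdkn1c, 8 of 12 genes of the imprinted region were tested. Running, in which 17.9% of all genes were called, called Nap1l4 (-0.11, unadjusted p = 0.0146) and Kcnq1ot1 (0.67, unadjusted p = 0.0472), the latter also being 1 of the nuclear RNAs. Both were called in Set A as well (-0.17 and 1.12), and Nap1l4 in Set B (0.17) and by genotype (0.10). Without the low libraries Nap1l4 was called by genotype alone (0.08, unadjusted p = 0.0351), Kcnq1ot1 in none of these, and Igf2, a growth factor gene, was called in running (0.75, unadjusted p = 0.00447), Set A (0.91, unadjusted p = 0.0165) and Set D (0.77, unadjusted p = 0.0282). Ascl2, at a mean of 0.31 TPM, was called in Set B (-1.27, unadjusted p = 0.0107) and the interaction (1.78, unadjusted p = 0.0106), and Slc22a18, at 0.424 TPM, in Set C (1.05, unadjusted p = 0.0323) and the interaction (-1.61, unadjusted p = 0.00986), each also without the low libraries.

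Markers of other cells also moved in running over both genotypes, beside the rise of Cdkn1a, where 17.9% of all genes were called. Called higher were 2 of 5 markers of endothelium, 2 of 5 of GABAergic interneurons, 2 of 5 of meninges, 1 of 4 of oligodendrocyte precursors and 2 of 7 nuclear RNAs, and lower were 2 of 5 each of astrocytes, microglia and stem and radial glia and 1 each of oligodendrocytes, CA2 neurons, choroid plexus and meninges. After removal of the low libraries, the calls were 2 of 5 of GABAergic interneurons, 1 of 5 of stem and radial glia and 1 of 5 of meninges higher, and 1 of 3 of CA2 neurons and 1 of 5 of neuroblasts lower. In Set C, Fibcd1 of CA1 neurons (0.83), Gad1 of GABAergic interneurons (0.17) and Rgs5 of pericytes (0.37) were called higher. In Set D, 2 of 4 markers of oligodendrocyte precursors were higher, with Vip, Gfap, Igfbpl1 and Rian, while Rgs14 was lower. Without the low library, Rgs5, Igfbpl1 and Rian were not called there. Mpped1 and Slc6a13 were then also higher in Set C. Gad1 and Slc6a13 were higher in Set D. Dcx, 1 of 5 neuroblast markers, and Tdo2, 1 of 5 dentate granule markers, were lower there. The median log2 fold changes of their lists in that fit were 0.23 and 0.0097. Of the proliferation markers, 3 passed the minimum mean without p16 KO RUN. Of these, Mki67 rose in running (0.80, unadjusted p = 0.000939, adjusted p = 0.0689), with 1.32 in Set A (unadjusted p = 0.000187), 0.27 in Set C (unadjusted p = 0.422) and an interaction of 1.05 (unadjusted p = 0.0163, adjusted p = 0.797). Its running difference without the low libraries was 0.51 (unadjusted p = 0.00441) and its interaction 1.08 (unadjusted p = 0.00314). Top2a had an interaction of 1.56 (limma, unadjusted p = 0.00649), and of 1.96 (unadjusted p = 0.00271) without the low libraries. In Set D Mki67 and Top2a were higher (0.80 and 1.22). The 3 markers had a median log2 fold change of -0.36 in Set C, where 0 of them were called. In running the median was 0.40, and Mki67 was the 1 called.

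In Set A 7.74% of all genes were called lower and 10.7% higher. Of 5 oligodendrocyte markers 3 were lower, with summed levels of 1326 to 2244 TPM in p16 KO CTL and 1007 to 1345 TPM in p16 KO RUN. Of 5 astrocyte markers 2 were lower (1558 to 2277 and 1407 to 1722 TPM), of 5 microglial markers 2 were lower (267.9 to 386 and 249 to 305 TPM), and of 5 markers of stem and radial glia 2 were lower (691 to 1077 and 713 to 904 TPM). Higher were Mki67 and Top2a of the 3 proliferation markers, and 1 of 5 each of endothelium (Pecam1, 0.53), meninges (Col1a1, 0.76) and neuroblasts (Igfbpl1, 1.32). The summed levels of the 3 proliferation markers were 1.88 to 2.60 and 3.42 to 5.08 TPM. Summed over all 5 markers, endothelium had 58.8 to 114.7 and 96.4 to 146 TPM. Meninges had 10.9 to 13.5 and 8.89 to 21.4 TPM, and neuroblasts 167 to 247 and 180 to 303 TPM. Of GABAergic markers Vip was higher and Pvalb lower, and of CA2 markers Rgs14 was lower. The 7 nuclear RNAs had a median log2 fold change of 1.12, with 2 called higher (summed levels of all 7, 474 to 2072 and 1926 to 2295 TPM). Among the libraries not low in nuclear RNA, the calls in Set A were 3 of 5 of oligodendrocytes, 1 of 5 of astrocytes, 0 of 5 of microglia, 2 of 5 of stem and radial glia, 1 of 4 of pericytes and 1 of 3 of CA2 neurons, all lower, and Mki67, Top2a, Igfbpl1 and Vip higher, with 0 of endothelium and meninges. The nuclear RNAs then had a median of -0.0033, with Malat1 called higher (0.59, unadjusted p = 0.00024) and Neat1 lower (-0.23, unadjusted p = 0.0288). Of 4 markers of CA1 pyramidal neurons, a neighbouring region, 0 were called in Sets A and B with all libraries, and 3 were lower in Set A and 3 higher in Set B without the low ones. In the interaction, 1 each of the CA1, CA2, GABAergic and stem and radial glia markers was called lower. Without the low libraries, where Cdkn2d was called, 5 of 5 oligodendrocyte and 3 of 4 CA1 markers were lower (medians of -0.84 and -1.82). So were 2 of 5 GABAergic markers and 1 each of stem and radial glia, CA2 neurons and pericytes. Of dentate granule markers, 2 of 5 were higher in that fit.

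In Set B, beside the difference of Cdkn2d, markers were called higher and none lower, against 3.15% of all genes called higher. They were 3 of 5 of stem and radial glia (summed levels of 594 to 766 TPM in p16 WT CTL and 691 to 1077 TPM in p16 KO CTL), 2 of 4 of oligodendrocyte precursors (62.7 to 73.1 and 77.6 to 86.9 TPM), 2 of 5 of microglia (268.5 to 315 and 267.9 to 386 TPM), 2 of 5 of GABAergic interneurons (759 to 1214 and 923 to 1173 TPM) and 1 of 3 of CA2 neurons. The 5 oligodendrocyte markers had a median log2 fold change of 0.42, and 0 were called. The 7 nuclear RNAs had a median of -0.91, and 0 were called. Without the low libraries the markers called higher in Set B were 2 of 5 of stem and radial glia, 1 of 5 of astrocytes and 1 of 3 of CA2 neurons beside those of CA1, and 0 of the oligodendrocyte precursor, microglial and GABAergic lists, while 2 of 5 of dentate granule neurons were lower. By genotype over both conditions, 2 of 4 markers of oligodendrocyte precursors and 2 of 5 of microglia were called higher. Vip, Sox2, Calb2, Top2a and Folr1, a choroid plexus marker (1.56), were also higher, and none was lower. On leaving out the low libraries, Gpr17, P2ry12, Sox2, Top2a and Folr1 were called higher. Aqp4, 1 of 5 astrocyte markers, was called lower (-1.36), while the median log2 fold change of the 5 was 0.046. No marker of these lists was at 0 in all libraries. The part of these cells in the values of the inhibitors was not tested.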

How the data were processed

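RNA of the dentate gyrus was sequenced in 16 libraries, 4 per group, each pooling 2 mice. The authors masked adapters with cutadapt 1.11 after bcl2fastq 2.20, trimmed with ERNE, aligned reads to mm10 with STAR and computed gene abundances with StringTie. The TPM values, as deposited, are StringTie's abundances per gene, and the FPKM values come from the same run by the authors. The coverage values, as deposited, are StringTie's mean per base and served for relative depth and as a second reading of some members. The strand setting of StringTie is not given in the sources used here, so a member and an antisense gene cannot be told apart. No read counts are in the tables, and the authors' own tests used htseq-count and DESeq2.

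Entries with 1 gene name were summed, and libraries were scaled by the median ratio to the mean library over 13226 genes that reached 1 TPM in each. With limma 3.58.1 in R 4.3.3 (lmFit, eBayes with a variance trend), two-sided tests of log2(scaled TPM + 0.1) were run for the 17317 genes whose mean reached 0.1 TPM. Sets A to E used the 8 libraries of their groups, and the interaction, running and genotype all 16. The Benjamini-Hochberg adjustment covered every gene tested, and single members also got an exact permutation test. The procedure was tested on simulated data in which each gene was drawn independently. That test does not cover shifts that many genes of a library share. Groups came from the sample labels.

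The members, the 7 pathway lists and 17 marker lists were chosen with earlier results of these data known. Named were the members, for each member whose mean reached 1 TPM the 3 genes of highest Pearson r, and up to 4 called genes per pathway list and comparison in order of p. Alternatives were FPKM in place of TPM, TPM as deposited, quantile normalization, a minimum mean of 1 TPM or no filter, a pseudocount of 0.01 or 1, a constant prior variance, 1 fit over all 16 libraries, the highest entry per name and leaving out each library. An analysis without the 3 libraries low in nuclear RNA was added after seeing the data. Promoter sequences came from RefSeq (GRCm38.p6) and exons from GENCODE.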

Additional observations from a re-analysis of the deposited data

Results flagged for a closer look

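In 5 of 28 sets of 4 libraries, 1 library lay far from the other 3 for an inhibitor gene, its gap to the nearest, as a share of the range, exceeding Dixon's critical value for 4 samples, which chance gives in about 1 in 20 sets of values without ties. That rate does not apply to Cdkn2a, with 2 of the 5 sets, since libraries at 0 are tied. Cdkn1a was at 18.03 TPM in p16 WT RUN replicate 10, against 11.0 to 11.9 TPM in the other 3 libraries. Cdkn1c was at 5.12 TPM in p16 KO CTL replicate 5, against 3.37 to 3.52 TPM. Cdkn2b was at 0.855 TPM in p16 WT CTL replicate 4, against 1.113 to 1.122 TPM. Cdkn2a was at 0.586 TPM in p16 WT CTL replicate 2 and at 0.413 TPM in p16 KO RUN replicate 13, where the other 3 libraries of the latter group were at 0. No inhibitor gene had an unadjusted p under 0.05 for the interaction of running with genotype (limma, all 16 libraries).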

How the results depend on the processing

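No paired analysis was possible because the groups have no replicate number in common. The 3 members called in Set A were 1 on TPM as deposited and without the libraries low in nuclear RNA, 2 without a variance trend, at a minimum mean of 1 TPM and in one fit over all 16 libraries, and 4 with quantile normalization, where Cdkn2b had -0.56. The 1 member called in Set B, in Set C and by genotype over both conditions was 0 without a variance trend, as it was without a filter in Set C and on TPM as deposited for genotype. Set D had 2 without the low library. Set E had 1 with all 16 libraries in one fit. The interaction had 1 without a filter, with quantile normalization and without the low libraries. Running had 4 with quantile normalization. Leaving out 1 library gave 1 to 3 members in Set A, 0 to 1 in Set B, 0 to 3 in Set C and 1 to 2 in Set D. It gave 0 to 1 in Set E, in the interaction and by genotype, and 1 to 3 with running. In these fits, 531 to 1018 of the 17317 genes were called in Set C and 1130 to 1934 in Set D. In Set E 486 to 1048 were called, and with running 2276 to 4166. The counts of all genes in the other comparisons are given below. The cause of these changes in the members called was not tested.

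Of 1188 log2 fold changes recomputed, 1048 kept direction and call, 42 lost a call, 25 gained one and 73 changed sign, all of members not called. In Set B, Cdkn2a turned to -0.027 with FPKM, -0.027 with pseudocount 1 and -0.013 on TPM as deposited, Cdkn2b to -0.00044 with pseudocount 0.01 and -0.053 on TPM as deposited, Cdkn1b to -0.026 on TPM as deposited and Cdkn1c to 0.043 with quantile normalization. Without the low libraries, Set B gave -0.032 for Cdkn2c, 0.0027 for Cdkn1a, -0.0069 for Cdkn1b and 0.074 for Cdkn1c, Set D 0.30 for Cdkn2a, the interaction -0.13 for Cdkn2b and genotype 0.0028 for Cdkn1c. The interaction was -0.11 for Cdkn2b and -0.040 for Cdkn2c with quantile normalization, and 0.030 for Cdkn1c on TPM as deposited. In running, Cdkn2a was -0.0018 with pseudocount 1 and -0.0016 with quantile normalization, and Cdkn1b 0.013 on TPM as deposited, where Cdkn1a by genotype was -0.010.

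Leaving out 1 library, the sign changed within -0.43 to 0.64 (Cdkn2a), -0.16 to 0.15 (Cdkn2b), -0.067 to 0.22 (Cdkn2c) and -0.16 to 0.0018 (Cdkn1c) in Set B, -0.93 to 0.091 (Cdkn2a) in Set A, -0.0098 to 0.10 (Cdkn2d) in Set C, -0.92 to 0.30 (Cdkn2a) in Set D, and -0.31 to 0.17 (Cdkn1c), -0.020 to 0.38 (Cdkn2b) and -0.015 to 0.039 (Cdkn2d) in Set E. It changed within -0.26 to 0.22 (Cdkn1c), -0.021 to 0.38 (Cdkn2b) and -0.085 to 0.22 (Cdkn2c) in the interaction, -0.26 to 0.35 (Cdkn2a) with running, and -0.064 to 0.11 (Cdkn1a), -0.18 to 0.064 (Cdkn1c) and -0.0089 to 0.19 (Cdkn2b) by genotype. Over all genes, 1709 were called higher and 1388 lower with running, against 2257 and 835 on TPM as deposited and 1403 and 1608 with quantile normalization, and 1856 and 1340 in Set A, against 2500 and 709, and 1534 and 1546. In Set B they were 545 and 613, against 336 and 777, and 691 and 572. The counts of all genes called, and so the shares set beside the inhibitors, also moved on leaving out 1 library. In Set B, 557 were called without replicate 7 and 3029 without replicate 2, against 1158 with all libraries. The counts ran from 720 to 2724 by genotype, from 619 to 2381 in the interaction and from 2023 to 4738 in Set A. Without read counts, the lowest genes, Cdkn2a and Cdkn2b, have no known counting error.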
